A study of Mus musculus with 6 samples.

Results

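The STAT factors and SOCS inhibitors described here are 9 genes of cytokine signalling, the transcription factors Stat2, Stat3, Stat4, Stat5a, Stat5b and Stat6 and the inhibitors Socs1, Socs3 and Cish. They were chosen by gene symbol out of 18193 genes measured, and each was read by its brightest probe set, judged on the average of the 6 arrays, with the other probe sets given beside it. The 9 genes had 18 probe sets in all that map to a single gene symbol. After immunisation with sheep red blood cells, germinal centre B cells were taken from mouse spleens with magnetic beads, and Affymetrix mouse 430 2.0 arrays were hybridised with their total RNA. All 6 mice carried ImHABCL6, an allele that expresses tagged BCL6, the repressor that defines germinal centre B cells, from an immunoglobulin heavy-chain promoter. ImHABCL6 mice without a further transgene are the control (3 arrays), and ImHABCL6/Uchl1 mice also carried transgenic Uchl1, a deubiquitinating enzyme (3 arrays). The promoter that drives Uchl1, the ages of the mice and the dose of red cells are not given in the sources used here, and no group lacks ImHABCL6. Nothing in the labels says more about the source of the replicates than 3 mice per genotype, and p-values measure the spread between these arrays.

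Cytokine receptors carry Janus kinases, which phosphorylate STAT proteins once a cytokine binds. Phosphorylated STATs pair, enter the nucleus and bind DNA, and among the genes they induce are Cish and the SOCS genes, whose products bind the receptors or the kinases and end the signal. In germinal centre B cells interleukin 21 signals mainly through STAT3, interleukin 4 through STAT6 and interferons through STAT2 and its partners. STAT activity is set by phosphorylation, which an array does not measure, so the values below are transcript levels alone.

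The arrays were checked by the transgene and by cell markers before the members were compared. Uchl1 read 5.01, 5.0 and 5.02 in ImHABCL6 replicates 1, 2 and 3 and 5.96, 5.87 and 6.02 in those of ImHABCL6/Uchl1. The 13 measured germinal centre and B-cell markers, Bcl6, S1pr2 and Rgs13 among them, had array means of 10.55 to 11.10 on the log2 scale. Every mouse carried an allele that expresses BCL6, so Bcl6 alone does not mark the cell type here. The array means were 4.93 to 5.32 for 13 T-cell and NK-cell markers, 4.95 to 5.54 for 15 macrophage, monocyte and neutrophil markers, 8.49 to 8.81 for 6 plasma-cell markers and 7.03 to 8.11 for 7 megakaryocyte and platelet markers. Different probe sets share no scale, so these lists are read across arrays and not against each other. The 13 measured markers of red-cell precursors averaged 10.45, 10.95 and 11.35 in ImHABCL6 and 9.05, 10.80 and 10.31 in ImHABCL6/Uchl1, so red-cell RNA was present on every array and lowest in ImHABCL6/Uchl1 replicate 1. In bulk RNA of this kind, fewer cells of a type and less RNA per cell cannot be told apart. ImHABCL6/Uchl1 replicate 2 stood apart from the other arrays. It had the smallest weight when arrays were weighted by their fit (0.297). It was the lowest of the 6 arrays for 27.9% of genes and the highest for 25.5%. ImHABCL6/Uchl1 replicate 1 came next, with a weight of 0.507, and was lowest for 17.5% and highest for 22.6%.

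None of the 9 genes differed between the genotypes beyond the spread between mice. With limma, 0 of 9 had an adjusted p under 0.05 (0% of all 18193 genes) and 0 of 9 had an unadjusted p under 0.05 (4.94% of all genes). In the 16 alternatives the second count was 0 to 2 of 9, with Cish, Stat4, Stat2 or Socs1 under 0.05 in some, while the first stayed at 0. The arrays of the genotypes overlapped for each of the 9, while 9.44% of all genes had every array of one genotype above every array of the other. Of the 9 genes 5 were lower on average in ImHABCL6/Uchl1, or 55.6%, against 49.4% of all genes, and the median log2 difference, ImHABCL6/Uchl1 minus ImHABCL6, was -0.02 against 0.00 for all genes. Limma's adjusted p was 0.998 to 0.999 for each of the 9, with Benjamini-Hochberg adjustment over all genes. Uchl1 itself, at a mean level of 5.48, differed by 0.94 (SE 0.12) with a limma adjusted p of 0.638. The same fit thus did not call the transgenic gene either. With 3 arrays against 3, the smallest p of an exact permutation test is 0.1.

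**Figure D1:**
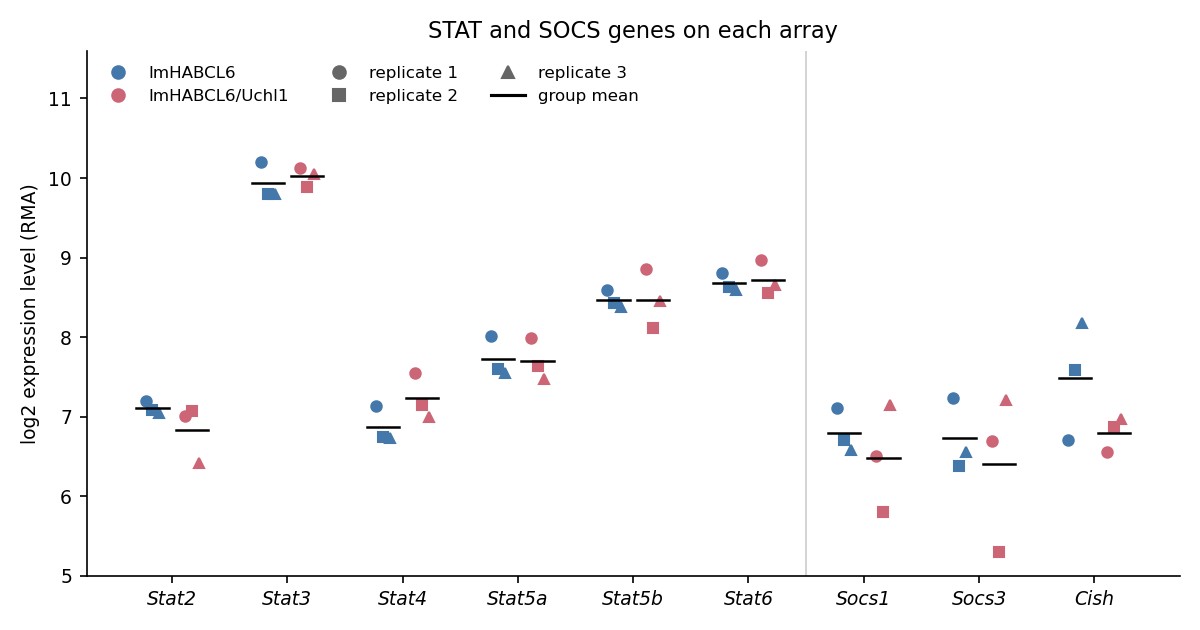
Log2 expression level of each STAT and SOCS gene on each of the 6 arrays, with ImHABCL6 in blue, ImHABCL6/Uchl1 in red, the replicate number as the marker shape and the mean of each genotype (n = 3) as a bar. The genotypes overlap for every gene, and ImHABCL6/Uchl1 replicate 2 lies lowest for Socs1 (5.80) and Socs3 (5.30).

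Among the STAT factors, Stat2 was the one with the lowest difference. STAT2 joins IRF9 and another STAT in ISGF3, the complex that type I interferon activates. Stat2 read 7.20, 7.08 and 7.04 in ImHABCL6 and 7.01, 7.07 and 6.42 in ImHABCL6/Uchl1. The low mean of the second genotype came from replicate 3, since its other arrays lay within or just under the control range. The log2 difference was -0.27 (SE 0.19, 95% interval -0.71 to 0.17, limma adjusted p = 0.998, exact permutation p = 0.2), and it was -0.07 without ImHABCL6/Uchl1 replicate 3. A second Stat2 probe set (1450403_at) read 5.99, 5.6 and 5.73 in ImHABCL6 and 5.45, 5.6 and 5.36 in ImHABCL6/Uchl1. Here replicate 2 of ImHABCL6/Uchl1 met the lowest control, and the difference was -0.30 (SE 0.15, limma adjusted p = 0.999 over all probe sets). Both Stat2 probe sets were therefore lower on average in ImHABCL6/Uchl1 by a like amount, and neither passed.

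Stat4, which carries the interleukin 12 signal and is best known from T cells and NK cells, had the highest difference of the 9 genes. Its single probe set read 7.13, 6.74 and 6.73 in ImHABCL6 and 7.55, 7.14 and 7.00 in ImHABCL6/Uchl1. Replicate 1 of each genotype was its highest array, and control replicate 1 lay above ImHABCL6/Uchl1 replicate 3. The difference was 0.36 (SE 0.19, 95% interval -0.07 to 0.80, limma adjusted p = 0.998, exact permutation p = 0.2). The array with the most Stat4, ImHABCL6/Uchl1 replicate 1, had the lowest mean of the T-cell and NK-cell markers (4.93) and the highest mean of the germinal centre and B-cell markers (11.10). It also had the lowest mean of the red-cell markers, and with that mean as a covariate the Stat4 difference was 0.10. The part of either cell type in the difference was not tested further.

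Stat3 and Stat6, the factors of interleukin 21 and interleukin 4, were at nearly the same level in both genotypes. Stat3 read 10.20, 9.80 and 9.80 in ImHABCL6 and 10.12, 9.89 and 10.05 in ImHABCL6/Uchl1, so the highest array was a control and the whole range was 0.40. Its difference was 0.09 (SE 0.16, 95% interval -0.27 to 0.45, limma adjusted p = 0.998). Stat6 read 8.81, 8.63 and 8.59 against 8.97, 8.55 and 8.65, and both its highest and its lowest array belonged to ImHABCL6/Uchl1. The Stat6 difference was 0.05 (SE 0.15, 95% interval -0.31 to 0.40, limma adjusted p = 0.998). The farther end of these intervals is a change of 1.37-fold for Stat3 and 1.32-fold for Stat6. The other Stat3 probe sets differed by 0.11 (1460700_at), 0.39 (1459961_a_at) and 0.06 (1424272_at), and the other Stat6 probe set by -0.02 (1421708_a_at). The Stat3 value of 0.39 had an SE of 0.20 and a limma adjusted p of 0.999, and that probe set read 7.34, 6.70 and 7.27 in ImHABCL6 and 7.29, 7.50 and 7.68 in ImHABCL6/Uchl1.

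Stat5a and Stat5b, neighbouring genes for closely related factors that act downstream of interleukin 2, interleukin 7 and erythropoietin, had the smallest differences of the 9. Stat5a read 8.01, 7.60 and 7.55 in ImHABCL6 and 7.99, 7.64 and 7.47 in ImHABCL6/Uchl1, much the same spread in each genotype with replicate 1 on top. Stat5b read 8.59, 8.43 and 8.38 against 8.85, 8.11 and 8.45, and the ImHABCL6/Uchl1 arrays enclosed all controls. The differences were -0.02 (SE 0.19, 95% interval -0.46 to 0.42) for Stat5a and 0.00 (SE 0.20, 95% interval -0.45 to 0.46) for Stat5b, with limma adjusted p = 0.998 and 0.999. The second probe sets gave -0.01 (1450259_a_at) and 0.01 (1422102_a_at). Because the sequences of these genes are similar, probe sets may share signal between them, which was not tested. In Stat3, Stat5a, Stat5b and Stat6 alike, the 2 highest arrays were ImHABCL6 replicate 1 and ImHABCL6/Uchl1 replicate 1. Red-cell markers averaged 10.45 and 9.05 on these arrays, 10.31 on ImHABCL6/Uchl1 replicate 3 and 10.80 to 11.35 on the others. ImHABCL6/Uchl1 replicate 3 lay next below the top 2 arrays for Stat3, Stat5b and Stat6 but was the lowest for Stat5a (7.47). The part of red-cell RNA in the order of the arrays was not tested.

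**Figure D2:**
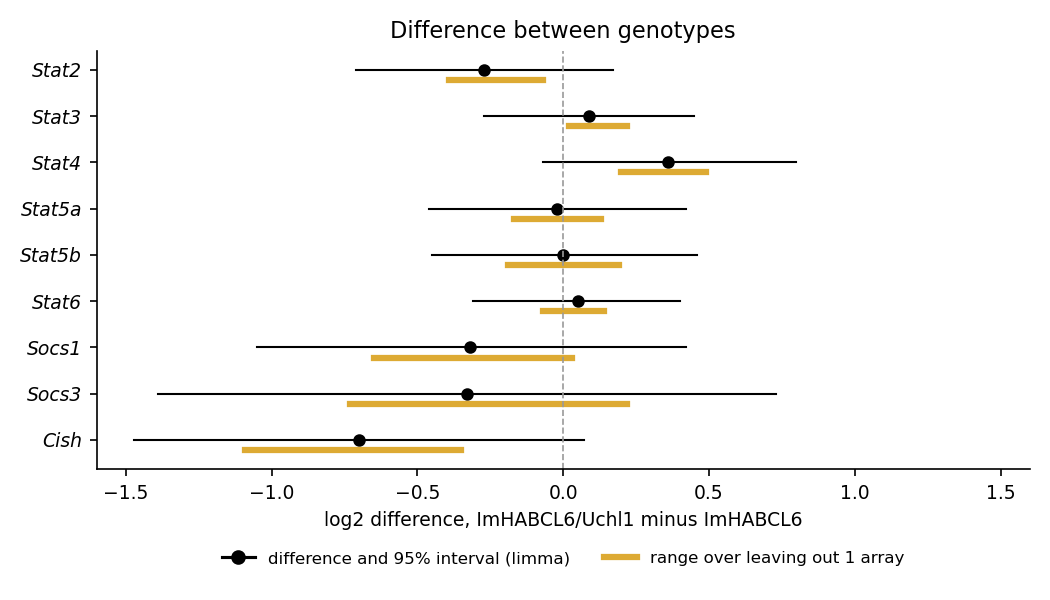
Log2 difference, ImHABCL6/Uchl1 minus ImHABCL6, of each gene with its 95% interval from limma (black) and the range of the difference when each of the 6 arrays was left out in turn (yellow). Every interval includes 0, the intervals of Socs1, Socs3 and Cish are the widest, and leaving out 1 array moves Socs3 between -0.73 and 0.22.

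By their brightest probe sets, the 3 inhibitors varied more between mice than the STAT factors did. Over the 6 arrays the SD of the log2 level was 0.49 for Socs1, 0.71 for Socs3 and 0.62 for Cish, above that of 94.9%, 98.0% and 97.2% of all genes. The SD of the 6 STAT factors was 0.16 to 0.30, and the median of all genes was 0.21. For Socs3 the wide spread held for 1455899_x_at, the brightest probe set, and for 1456212_x_at (SD 0.83). It did not hold for 1416576_at, whose SD of 0.25 lay within the STAT range. Among the other STAT probe sets, 1459961_a_at of Stat3 had the largest SD, 0.33. Within ImHABCL6 and within ImHABCL6/Uchl1 the SD was 0.28 and 0.67 for Socs1, 0.45 and 0.99 for Socs3 and 0.74 and 0.22 for Cish. The STAT factors had 0.09 to 0.26 and 0.12 to 0.37 by their brightest probe sets. Cish thus varied no more than they did within ImHABCL6/Uchl1, and Socs1 only slightly more within ImHABCL6. All 3 inhibitors were lower on average in ImHABCL6/Uchl1, with a median difference of -0.33. For Socs1 and Socs3 this rested on ImHABCL6/Uchl1 replicate 2, without which the differences were 0.03 and 0.22. Cish stayed lower whichever array was left out (-1.09 to -0.35).

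Socs1 and Socs3 inhibit Janus kinases directly, Socs1 chiefly after interferon and Socs3 at receptors that use gp130. Socs1 read 7.11, 6.71 and 6.58 in ImHABCL6 and 6.50, 5.80 and 7.15 in ImHABCL6/Uchl1. ImHABCL6/Uchl1 thus held both the lowest array, replicate 2, and the highest, replicate 3. The difference was -0.32 (SE 0.32, 95% interval -1.05 to 0.42, limma adjusted p = 0.998, exact permutation p = 0.5). Socs3 read 7.24, 6.38 and 6.56 in ImHABCL6 and 6.69, 5.30 and 7.21 in ImHABCL6/Uchl1. Replicate 2 was again the lowest, far below every other array, while replicate 3 lay beside the highest control. The Socs3 difference was -0.33 (SE 0.46, 95% interval -1.39 to 0.73, limma adjusted p = 0.998, exact permutation p = 0.8). Without ImHABCL6/Uchl1 replicate 2 both differences turned sign, to 0.03 for Socs1 and 0.22 for Socs3. The other Socs3 probe sets read lowest in the same array, 5.52 for 1416576_at and 4.0 for 1456212_x_at, and differed by -0.13 and -0.23. Germinal centre and B-cell markers averaged 10.55 on that array, the lowest of the 6, with ImHABCL6 replicate 3 next at 10.64. That array was the lowest for 5 of the 13 markers (38.5%), beside 27.9% of all genes. The part of B-cell content in the Socs1 and Socs3 values was not tested.

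Cish, an inhibitor that docks on activated receptors and is a classical STAT5-induced gene, had the lowest difference of the 9 genes. It read 6.71, 7.58 and 8.18 in ImHABCL6 and 6.55, 6.87 and 6.97 in ImHABCL6/Uchl1. The ImHABCL6/Uchl1 arrays were close together, and the controls spread from among them upward, with replicates 2 and 3 above every ImHABCL6/Uchl1 array. The difference was -0.70, or 1.62-fold (SE 0.34, 95% interval -1.47 to 0.07, limma adjusted p = 0.998, exact permutation p = 0.3). It was -1.09 without ImHABCL6 replicate 1 and -0.35 without ImHABCL6 replicate 3, with limma adjusted p = 0.767 and 1.0. Within ImHABCL6, Cish was lowest in replicate 1 and highest in replicate 3, as was the mean of the red-cell markers, and ImHABCL6/Uchl1 replicate 1, the lowest of all for Cish, was lowest of all for each of the 13 red-cell markers. Within ImHABCL6/Uchl1 the orders parted above replicate 1, since the red-cell mean was highest in replicate 2 (10.80) and Cish in replicate 3 (6.97). The erythropoietin receptor Epor signals through STAT5 in red-cell precursors and is itself among the 13 red-cell markers. Epor read 8.44, 8.89 and 9.41 in ImHABCL6 and 7.16, 8.53 and 7.97 in ImHABCL6/Uchl1, so its pattern is not separate from their mean. With the red-cell mean as a covariate the Cish difference was -0.27 (SE 0.33, limma adjusted p = 0.696). The part of red-cell RNA in the Cish difference was not tested further.

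**Figure D3:**
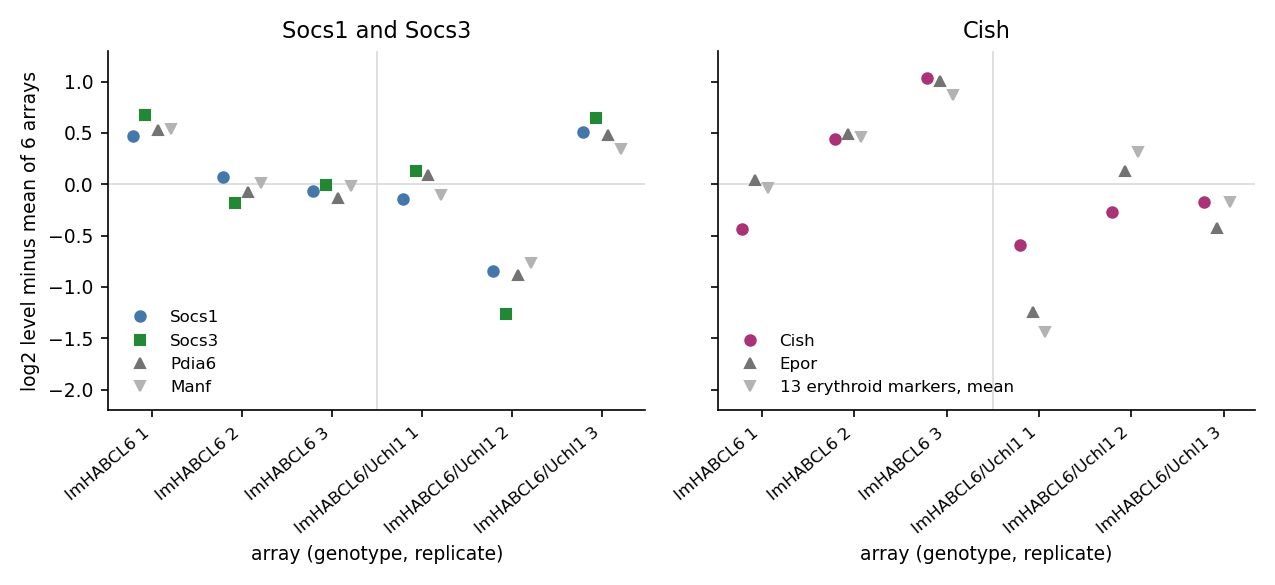
Log2 level minus the mean of the 6 arrays, on each array, for Socs1 and Socs3 with Pdia6 and Manf (left) and for Cish with Epor and the mean of 13 red-cell markers (right). Socs1 and Socs3 are lowest in ImHABCL6/Uchl1 replicate 2. Cish is highest in ImHABCL6 replicate 3 and lowest in ImHABCL6/Uchl1 replicate 1, where Epor and the red-cell mean are also lowest. Epor is itself among the 13 markers.

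The genes closest in pattern to each inhibitor were named by Pearson's r over the 6 arrays, among 2954 genes of mean at least 6 and SD at least 0.3. For Socs3 they were Pdia6 (r = 0.991), a protein disulphide isomerase of the endoplasmic reticulum, Cemip2 (0.987), a cell-surface protein of hyaluronan turnover, and Tfap4 (0.985), a transcription factor. For Socs1 they were Isoc1 (0.992) and 2 genes of protein folding in the endoplasmic reticulum, Sdf2l1 (0.986) and Manf (0.985). For Cish they were Tnfrsf21 (0.982), a death receptor, Arrdc3 (0.966), an arrestin-domain protein, and Map2k3 (0.965), a kinase upstream of p38. Pdia6 read 10.91, 10.31 and 10.25 in ImHABCL6 and 10.47, 9.50 and 10.86 in ImHABCL6/Uchl1. Tnfrsf21 read 6.26, 7.19 and 8.11 against 5.62, 6.34 and 6.63. Of the 2954 genes, r was over 0.95 for 71 with Socs3 (2.4%), 25 with Socs1 (0.846%) and 8 with Cish (0.271%). These values describe how the arrays differ and carry no test.

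The sequences at the annotated starts of the inhibitors and of Stat2 were searched for letters that STAT complexes are known to bind. The 300 bases around each start, 250 before it and 50 from it on, are printed from RefSeq (GRCm38.p6) because these 4 genes carried the largest downward differences. Capitals mark TTCNNNGAA, the spaced palindrome that STAT dimers bind, and GAAANNGAA, the core of the interferon response element, each searched on both strands.
Cish, chr9:107296409-107296708, plus strand: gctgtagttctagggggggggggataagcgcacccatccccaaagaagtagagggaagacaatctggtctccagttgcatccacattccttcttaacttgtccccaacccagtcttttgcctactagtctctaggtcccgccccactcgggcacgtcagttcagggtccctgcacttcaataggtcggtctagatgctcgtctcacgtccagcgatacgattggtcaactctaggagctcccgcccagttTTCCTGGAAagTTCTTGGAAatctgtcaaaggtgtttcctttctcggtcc
Socs3, chr11:117969317-117969616, minus strand: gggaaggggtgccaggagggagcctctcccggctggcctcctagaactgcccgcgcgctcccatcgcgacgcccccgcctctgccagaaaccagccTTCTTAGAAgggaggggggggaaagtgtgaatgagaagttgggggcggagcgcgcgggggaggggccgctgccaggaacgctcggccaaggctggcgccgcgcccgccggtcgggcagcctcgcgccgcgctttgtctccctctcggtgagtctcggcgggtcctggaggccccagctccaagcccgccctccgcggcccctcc
Socs1, chr16:10785487-10785786, minus strand: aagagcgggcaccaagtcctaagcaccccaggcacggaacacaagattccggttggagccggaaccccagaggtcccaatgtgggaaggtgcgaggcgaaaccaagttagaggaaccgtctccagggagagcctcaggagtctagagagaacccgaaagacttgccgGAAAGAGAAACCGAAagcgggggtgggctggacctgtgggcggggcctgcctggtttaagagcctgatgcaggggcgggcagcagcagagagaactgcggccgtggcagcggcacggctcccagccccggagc
Stat2, chr10:128270248-128270547, plus strand: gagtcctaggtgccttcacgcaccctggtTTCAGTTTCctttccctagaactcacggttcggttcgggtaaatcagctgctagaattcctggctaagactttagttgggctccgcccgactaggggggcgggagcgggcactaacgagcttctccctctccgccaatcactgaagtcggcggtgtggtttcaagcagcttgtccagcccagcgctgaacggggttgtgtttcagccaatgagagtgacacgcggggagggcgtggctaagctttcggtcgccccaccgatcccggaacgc

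Cish held TTCNNNGAA at 2 places, TTCCTGGAA at the annotated start itself and TTCTTGGAA 11 bases after it, and Socs3 held it once, as TTCTTAGAA 154 bases before the start. Of all 32817 RefSeq windows of this length, 8.29% held TTCNNNGAA at least once and 0.457% held it 2 or more times. Socs1 held GAAANNGAA at 2 overlapping places, 83 and 77 bases before the start (GAAAGAGAA and GAAACCGAA), and Stat2 held it once on the other strand, 221 bases before the start (TTCAGTTTC). GAAANNGAA was in 8.55% of all windows, 2 or more times in 0.619%. All 9 genes had at least 1 window. Outside the 4 printed, 1 of the 2 Stat4 windows held GAAANNGAA (GAAAGTGAA, 97 bases before the start), and the windows of Stat3, Stat5a, Stat5b and Stat6 held neither motif. A match is a match of letters alone, and a window without one says nothing of the factor.

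Genes that work with the members were read from 5 lists, and 0 genes of any list passed over all genes (0% of all genes). Of 5 further SOCS genes measured, 2 were lower and 3 higher, with a median difference of 0.05. Socs4 differed by -0.33 (SE 0.18), Socs6 by -0.07 (SE 0.33), Socs2 by 0.05 (SE 0.20), Socs7 by 0.07 (SE 0.19) and Socs5 by 0.13 (SE 0.39). For 4 of these 5 genes, or 80.0%, the lowest array was ImHABCL6/Uchl1 replicate 2, beside 27.9% of all genes. That array was also the lowest for Socs1 and Socs3, but not for Cish. Socs5 read 8.18, 7.31 and 6.94 in ImHABCL6 and 8.15, 6.90 and 7.77 in ImHABCL6/Uchl1.

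The Janus kinases were nearly level between genotypes. All 4 were lower on average in ImHABCL6/Uchl1, with a median of -0.03. Jak2, the kinase of the erythropoietin and interferon gamma receptors, differed by -0.25 (SE 0.15) and read 9.87, 10.02 and 10.07 in ImHABCL6 and 9.97, 9.72 and 9.52 in ImHABCL6/Uchl1. Jak1 (-0.03, SE 0.15), Jak3 (-0.03, SE 0.17) and Tyk2 (-0.01, SE 0.16) differed by less than their standard errors.

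Of 29 receptor chains 13 were lower and 16 higher, with a median of 0.01. Epor had the smallest p, with a difference of -1.02 (SE 0.36, limma adjusted p = 0.983), and its values are set beside Cish above. It was -0.66 without ImHABCL6/Uchl1 replicate 1 and -0.32 with the red-cell mean as a covariate. Epor is itself among the markers in that mean, so the covariate value adjusts Epor partly for itself. Il2ra, the interleukin 2 receptor alpha chain, differed by 0.26 (SE 0.13), and its arrays did not overlap, at 5.34, 5.15 and 5.23 in ImHABCL6 and 5.56, 5.56 and 5.39 in ImHABCL6/Uchl1. Lepr, the leptin receptor, differed by 0.28 (SE 0.14), and Il5ra, the interleukin 5 receptor alpha chain, by 0.47 (SE 0.25). The arrays of 2 of the 29 receptor genes did not overlap, or 6.90%, beside the 9.44% of all genes.

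Other inhibitors of the pathway were higher in 9 of 13 cases, with a median of 0.07. Usp18, an interferon-induced inhibitor of the type I interferon receptor, was the exception in size, at 8.89, 9.09 and 8.67 in ImHABCL6 and 7.50, 7.05 and 8.67 in ImHABCL6/Uchl1. Its replicate 3 equalled the lowest control, and the difference was -1.14 (SE 0.37, limma adjusted p = 0.983). Cblb, a ubiquitin ligase, differed by 0.34 (SE 0.15), at 9.35, 9.27 and 9.17 against 9.74, 9.69 and 9.37, without overlap. The phosphatases Ptpn11 and Ptpn1 differed by -0.15 (SE 0.13) and 0.18 (SE 0.17).

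Genes that STATs are known to induce were divided, 13 of 23 lower and 10 higher, with a median of -0.02. The arrays of 6 of the 23 did not overlap, or 26.1%, beside the 9.44% of all genes, and Irf9, Irf7 and Fcer2a were among them. Il2ra, already counted with the receptors, was another. The list was chosen with earlier results of these data known, so its shares are descriptions and carry no test. Irf9, the DNA-binding subunit of ISGF3, read 9.35, 9.33 and 9.54 against 8.70, 8.54 and 9.02, and Irf7, which amplifies interferon production, read 9.23, 9.25 and 9.21 against 8.33, 8.75 and 8.80. The differences were -0.66 (SE 0.16) and -0.60 (SE 0.16), each with limma adjusted p = 0.854. Fcer2a (CD23), an interleukin 4 and STAT6-induced receptor of B cells, went the other way, at 9.97, 9.80 and 9.88 against 10.66, 10.40 and 10.31, a difference of 0.57 (SE 0.14, limma adjusted p = 0.854). Its other probe set differed by 0.29 (SE 0.20, limma adjusted p = 0.999 over all probe sets), and the mean of both by 0.43. Gadd45g, a stress and cytokine-induced gene, differed by -0.35 (SE 0.14, limma adjusted p = 0.992). For 12 of the 23 genes, or 52.2%, ImHABCL6/Uchl1 replicate 2 was the lowest array, beside 27.9% of all genes. Myc, one of them, read 9.30, 8.66 and 8.60 against 8.97, 7.75 and 8.92, and is named for its likeness to Socs3 after its values were seen.

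**Figure D4:**
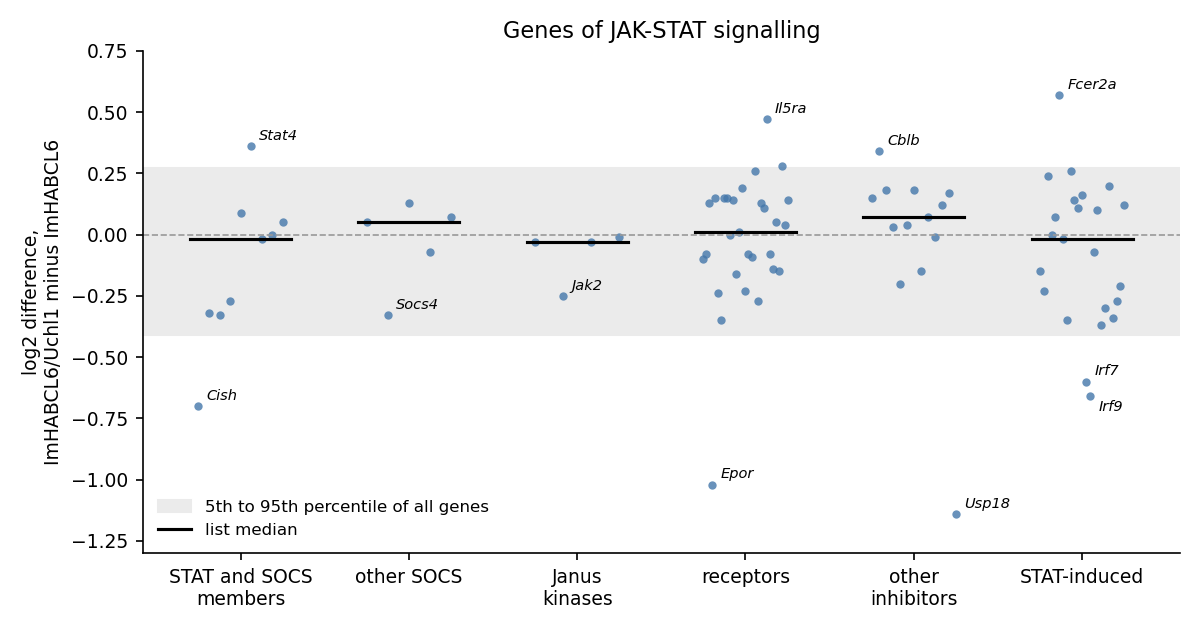
Log2 difference, ImHABCL6/Uchl1 minus ImHABCL6, of every measured gene in 6 lists of JAK-STAT signalling (points), with list medians (bars) and the 5th to 95th percentile of all genes (grey, -0.41 to 0.27). List medians lie between -0.03 and 0.07, with Usp18, Epor, Cish, Irf9 and Irf7 below the grey band and Fcer2a, Il5ra, Stat4, Cblb and Lepr above it.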

How the data were processed

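Total RNA of the 6 preparations was labelled with a 3' in vitro transcription kit, per the labels' protocols. The deposited log2 expression values, 1 per probe set and array, were made by the authors; the submitters' processing notes name RMA and Partek, without versions or settings. RMA compresses differences of dim probe sets, and no detection calls came with the values. Of 45101 probe sets, 34945 had exactly 1 symbol in GEO's platform annotation, 932 had several and 9160 none, and 64 controls were left out. Of 18193 genes 18032 matched a RefSeq table (GRCm38.p6) by Entrez identifier, and 0 symbols changed.

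The genotype comparison used limma 3.58.1 (lmFit, eBayes; R 4.3.3), two-sided and unfiltered, and p-values were adjusted by Benjamini-Hochberg over all genes, with a threshold of 0.05. Exact two-sided permutation tests used the 6 arrays. The steps were tested on simulated data. The members, the gene lists and the naming rule (members, up to 4 genes of smallest p per list, all genes of lists of up to 6, and the 3 genes most alike to each of the 3 most variable members) were chosen with earlier results of these data known. Alternatives were the mean of all probe sets, no suffixed probe sets, no dim genes (mean under 6), quantile normalization, median centring, array weights, trend and robust options, a red-cell covariate, a replicate block, all probe sets and leaving out each array. The number of arrays limits the precision. Figures were drawn with matplotlib 3.10.9.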

Additional observations from a re-analysis of the deposited data

How the results depend on the processing

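Under every alternative run, 0 of the 9 members and 0 of all genes had a limma adjusted p under 0.05. At an unadjusted p under 0.05 limma gave 898 of 18193 genes (4.94%), 598 of 9799 without dim genes (6.1%), 2819 with array weights (15.5%), 2630 with the red-cell covariate (14.5%), 1716 of 34945 probe sets (4.91%), and 387 to 1330 genes without 1 array (2.13% to 7.31%). Of the members, 0 of 9 did so in the fit as reported, Stat2 and Cish with array weights, Stat4 and Cish with the replicate block and without ImHABCL6 replicate 1, Stat4 with quantile normalization and Socs1 without ImHABCL6/Uchl1 replicate 3. Stat2, Stat4 and Cish kept their sign in all 15 single-value settings, between -0.56 and -0.07, 0.10 and 0.49, and -1.09 and -0.27. The median of the members was -0.28 with the red-cell covariate, where 8 of 9 were lower, and between -0.19 and 0.14 when 1 array was left out, at replicates 1 and 2 of ImHABCL6/Uchl1. Signs turned, with no call on either side, for Stat5a (0.02), Jak1 (0.05) and Tyk2 (0.07) with quantile normalization and for Stat5b (-0.03) with median centring. With array weights they turned for Socs1 (0.20), Socs3 (0.38), Socs2 (-0.17), Socs6 (0.26) and Jak3 (0.06), and with the red-cell covariate for Stat3 (-0.07), Stat5b (-0.32), Stat6 (-0.16), Socs7 (-0.11) and Socs5 (-0.55). Other probe sets turned Stat6 (-0.02), Socs2 (-0.02), Socs6 (0.03), Jak1 (0.03) and Lepr (-0.06), and leaving out suffixed ones turned Socs6 (0.03) and Lepr (-0.06). The cause of these turns was not tested. Leaving out each array in turn gave -0.17 to 0.13 for Stat5a, -0.19 to 0.19 for Stat5b, -0.07 to 0.14 for Stat6, -0.65 to 0.03 for Socs1 and -0.73 to 0.22 for Socs3. The same gave -0.11 to 0.17 for Socs2, -0.14 to 0.48 for Socs5, -0.28 to 0.34 for Socs6, -0.05 to 0.24 for Socs7, -0.16 to 0.05 for Jak1, -0.14 to 0.10 for Jak3 and -0.13 to 0.12 for Tyk2. Socs1, Stat5a and Stat5b have suffixed probe sets only and gave no value without them.

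Nothing in the labels says that replicate numbers pair mice. Deviations from the genotype mean correlated at 0.43, 0.19 and -0.26 for same-numbered arrays and at -0.59 to 0.53 for differently numbered ones. With 3 arrays per genotype the deviations sum to 0 within each, so these correlations cannot show whether mice were paired. With a replicate block 0 of all genes had a limma adjusted p under 0.05, and 1002 an unadjusted p under 0.05. The block left the differences as they were and gave Stat4 a limma adjusted p of 0.816 and Cish 0.57.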
